A study of Mus musculus with 2 samples.

Results

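De novo purine synthesis was read in common myeloid progenitors (CMP) of the mouse, the bone marrow cells that give rise to granulocytes, monocytes, red cells and megakaryocytes, through 10 genes of 43346 in the deposited gene tables: Prps1, Ppat, Gart, Pfas, Paics, Adsl, Atic, Impdh1, Impdh2 and Gmps. The genes were taken by symbol as the enzymes of the pathway, without use of their measured values. Each of the 2 libraries was total RNA longer than 200 nucleotides from a pool of 100 primary CMP of male adult C57BL/6J mice aged 5 to 6 weeks, with no treatment or genetic change named, and both form 1 group. The labels give separate biosamples but the same donor identifier, so the spread between the libraries may be partly technical. All 10 genes were detected at 1 TPM (transcripts per 1000000, a level corrected for transcript length) or more in both libraries, against 44.9% of 21461 nuclear protein-coding genes.

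Cells make purine nucleotides by building the purine ring piece by piece on an activated ribose, phosphoribosyl pyrophosphate (PRPP). The route ends at inosine monophosphate (IMP), which is then turned into adenosine monophosphate (AMP) or guanosine monophosphate. Dividing cells, blood progenitors among them, draw on this route as well as on salvage of free bases, and several of its genes are known targets of the transcription factor MYC, which binds the E-box sequence CACGTG.

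Expected counts, which are reads per gene with shared reads divided between genes, summed to 28916263 for replicate 1 and 26426710 for replicate 2. The 10 enzymes had between 552 and 5196 counts per library. For 7 of the 10 the deposited posterior SD of the gene's count was 0 in both libraries, and for Prps1, Impdh2 and Gmps it was at most 19.9 counts, so few of their reads were divided with other genes. The CMP label was read against its gate. Kit, the stem cell factor receptor, stood at 95.5 ± 3.67 TPM (SD, n = 2) and Cd34 at 65.0 ± 13.5, whereas Ly6a and Il7r had 0 counts in both libraries. For either gene a level below 0.104 per 1000000 counts in replicate 1 or 0.114 in replicate 2 is not shown (a floor of 3 counts per library). The Fc gamma receptor genes, low in CMP and high in granulocyte-monocyte progenitors, differed between the libraries: Fcgr3 stood at 0.64 TPM in replicate 1 and 4.27 in replicate 2, and Fcgr2b at 2.48 and 9.59. Of 8 lineage genes, 2 were detected at 1 TPM in both libraries, Ptprc and Itgam, while 145 counts of Cd5 were found in replicate 1 against 0 in the other library. In such bulk pools a smaller number of expressing cells and less RNA per cell cannot be told apart.

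Promoter windows of the enzyme genes, 250 bases before to 50 after each RefSeq start on GRCm38.p6, were read for 9 of the 10 genes, with 2 windows for Impdh1. CACGTG, which reads the same on both strands, was found in 3 of these 10 windows, against 7.15% of 32851 windows in the table and 10.5% of 10089 windows of genes detected in both libraries. These were the windows of Impdh2, Paics and Atic, which had the 3 highest mean levels, although the range of Atic overlapped that of Gart and in replicate 2 Atic stood below Gart and Pfas. They are shown 5′ to 3′ on the strand of the gene, with CACGTG in capitals.
Impdh2, chr9:108560186-108560485, plus strand: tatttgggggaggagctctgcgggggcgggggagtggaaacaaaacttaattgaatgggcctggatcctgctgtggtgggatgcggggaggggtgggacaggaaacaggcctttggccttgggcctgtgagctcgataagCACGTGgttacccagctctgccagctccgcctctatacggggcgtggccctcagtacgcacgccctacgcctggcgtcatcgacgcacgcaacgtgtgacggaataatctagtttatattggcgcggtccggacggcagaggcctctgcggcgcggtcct
Paics, chr5:76951052-76951351, plus strand: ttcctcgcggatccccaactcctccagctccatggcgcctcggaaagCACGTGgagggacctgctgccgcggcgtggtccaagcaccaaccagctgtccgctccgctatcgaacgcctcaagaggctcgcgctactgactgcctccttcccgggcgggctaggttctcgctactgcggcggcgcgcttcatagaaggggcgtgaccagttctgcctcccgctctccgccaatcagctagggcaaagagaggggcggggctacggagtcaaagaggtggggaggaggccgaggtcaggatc
Atic, chr1:71556906-71557205, plus strand: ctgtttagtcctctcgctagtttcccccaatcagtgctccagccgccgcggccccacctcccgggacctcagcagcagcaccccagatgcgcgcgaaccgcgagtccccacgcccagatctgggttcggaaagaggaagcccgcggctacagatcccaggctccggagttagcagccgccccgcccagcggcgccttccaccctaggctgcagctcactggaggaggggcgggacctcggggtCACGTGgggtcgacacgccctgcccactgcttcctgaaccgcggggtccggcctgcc
The first base of CACGTG lay 110 bases before the RefSeq start of Impdh2, 203 before that of Paics and 7 before that of Atic. GENCODE places the start of Impdh2 150 bases further upstream than RefSeq does, so its match lies inside the GENCODE gene body. With 3 genes, the meeting of motif and level is a description. The GC box GGGCGG, on either strand, was found in all 10 windows of the 9 genes, against 35.7% of all windows and 63.8% of those of detected genes. CCAAT, on either strand, was found in windows of 5 of the 9 genes, against 37.4% of all windows. A match describes letters in a window, and binding was not measured.

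Ppat and Paics, which act at separate steps of the same route, lie head to head on chromosome 5, and their gene bodies overlap by 272 bases. The Paics window above lies wholly inside exon 1 of the main Ppat transcript (76950957 to 76951578). The RefSeq starts of the genes are 276 bases apart, and transcription from each runs across the start of the other. The Ppat window, shown for that arrangement, held no CACGTG.
Ppat, chr5:76951529-76951828, minus strand: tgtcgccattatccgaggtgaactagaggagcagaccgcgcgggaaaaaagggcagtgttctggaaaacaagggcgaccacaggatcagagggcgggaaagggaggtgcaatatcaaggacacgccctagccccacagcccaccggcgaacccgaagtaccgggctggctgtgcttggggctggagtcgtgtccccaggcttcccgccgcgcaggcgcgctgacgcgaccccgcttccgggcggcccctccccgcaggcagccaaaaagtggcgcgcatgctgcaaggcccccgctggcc

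The levels spanned about an order of magnitude along the pathway, with Impdh2 and Paics at the top and Gmps and Impdh1 at the bottom. In the library with the lower value of each, 9 of the 10 enzymes still stood above the median of the 9627 nuclear protein-coding genes detected in both libraries, which was 13.2 TPM in replicate 1 and 13.5 in replicate 2. Gmps stood above it in replicate 1 and below it in replicate 2. The median over the 10 enzymes was 50.04 TPM in replicate 1 and 30.7 in replicate 2. Their summed level was 605.5 TPM in replicate 1 and 469.7 in replicate 2.

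**Figure D1:**
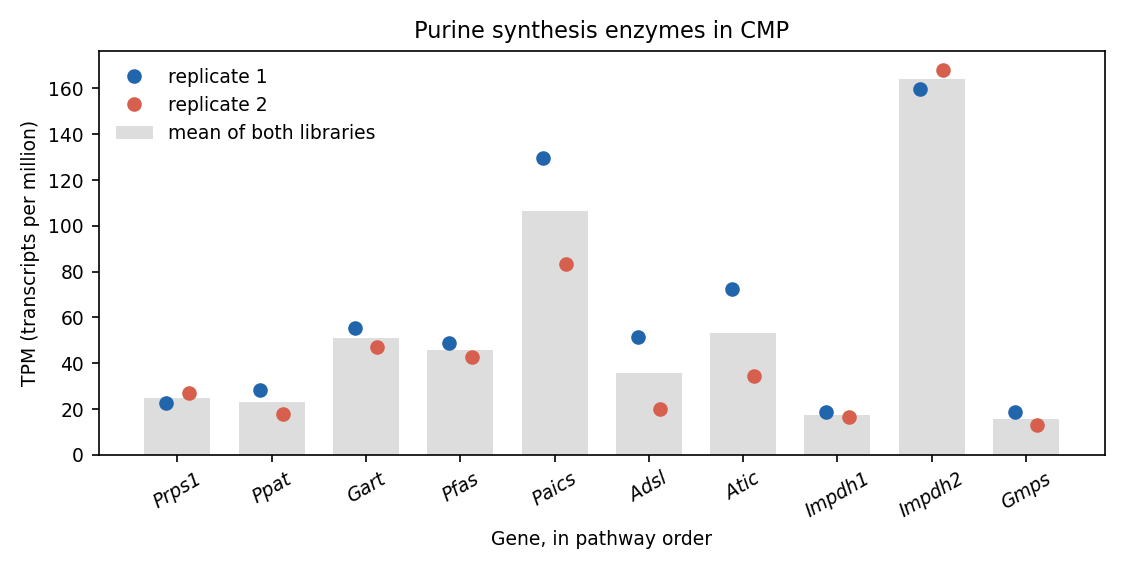
TPM of each enzyme gene in pathway order, with 1 point per library and a bar at the mean of both. Impdh2 lies at 159.8 and 168.0 TPM, above every other gene in both libraries, and Adsl, Atic and Paics show the widest gaps between the libraries.

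Supply of the activated ribose was read through Prps1 (chromosome X, 140456613 to 140476140, GRCm38), a PRPP synthetase that makes the sugar on which the ring is built. Prps1 measured 22.7 TPM in replicate 1 and 27.2 in replicate 2, from 847 and 1006 counts. It was the enzyme gene with more scaled counts in replicate 2 than in replicate 1. Its relative Prps2 had 16.6 ± 3.64 TPM (SD, n = 2), from 1022 and 1068 counts. In TPM Prps1 exceeded Prps2 1.62-fold in replicate 1 and 1.42-fold in replicate 2. In counts Prps1 was the lower of them in both libraries, so this order rests on the length correction. The PRPP synthetase-like gene Prps1l3 had 18.9 ± 0.827 TPM, from 629 and 583 counts. Prps1l1 had 0 counts in both libraries. Prpsap1, which encodes a protein associated with the synthetases, led these relatives at 40.005 ± 3.36 TPM.

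The committing step is made by Ppat (chromosome 5, 76913249 to 76951578), the amidotransferase that places the first nitrogen on PRPP and the step at which purine nucleotides feed back. Ppat measured 28.2 TPM in replicate 1 and 17.8 in replicate 2, from 2254 and 1347 counts. Its level was among the 4 lowest of the 10 in both libraries. In replicate 1 the deposited transcript table gave 64.6% of its counts to the complete coding transcript of 517 residues and 35.4% to Ppat-203, a form annotated as a target of nonsense-mediated decay, which removes transcripts with an early stop codon. In replicate 2 these shares were 96.7% and 0%. The coding form alone stood at 18.5 TPM in replicate 1 and 16.7 in replicate 2, closer together than the values of the gene.

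Paics (chromosome 5, 76951307 to 76967509), the bifunctional enzyme that carboxylates the first ring and then adds aspartate to it, stood far above its neighbour Ppat. Paics measured 129.8 TPM in replicate 1 and 83.4 in replicate 2, from 4948 and 3548 counts. It ranked next below Impdh2 in both libraries, and its range overlapped that of no other enzyme gene. Paics exceeded Ppat by 4.61-fold in replicate 1 and 4.69-fold in replicate 2 in TPM. Both genes were lower in replicate 2, and the ratio of their gene-level TPM barely moved. In counts, without length correction, the ratio was 2.20 and 2.63. In complete coding transcripts alone, Paics had 106.5 and 77.97 TPM and Ppat 18.5 and 16.7, so there the ratio was lower in replicate 2. The transcript Paics-203 took 96.6% and 91.9% of the counts of the gene.

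Between these steps stand Gart (chromosome 16, 91621186 to 91646952), a trifunctional enzyme that adds glycine, adds a formyl group and closes the first ring, and Pfas (chromosome 11, 68985697 to 69008460), the amidotransferase that brings in the next nitrogen. Gart measured 55.3 TPM in replicate 1 and 47.03 in replicate 2, from 2762 and 2726 counts. Pfas measured 48.6 and 42.6 TPM, from 2499 and 2109 counts. The ranges of these genes overlapped, and both were lower in replicate 2 in TPM.

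Gart makes a long transcript for the whole enzyme and a short one that ends within the gene and encodes only its first activity, the glycinamide ribonucleotide synthetase. The long form, Gart-201, encodes 1010 residues and the short form, Gart-202, 433. The short form took 28.9 TPM in replicate 1 and 13.8 in replicate 2, and the long form 10.8 and 25.8. In replicate 1 the short form was thus the higher of them and in replicate 2 the long form was. Gart-203, annotated as a decay target, held 35.8% of the counts in replicate 1, against 17.2% in replicate 2. The sum of both coding forms was nearly equal in the libraries, at 39.8 and 39.6 TPM.

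For Pfas much of the signal was assigned to forms that do not encode the enzyme. The complete coding transcript, Pfas-201, encodes 1337 residues and took 36.7% of the counts of the gene in replicate 1 and 47.4% in replicate 2. Transcripts annotated with a retained intron took 60.1% and 50.6%, among them Pfas-205 with 43.3% and 14.02% and Pfas-206 with 14.6% and 17.8%. A fragment of 352 bases, Pfas-203, took 3.17% and 1.94% of the counts but 38.1% and 24.4% of the TPM since TPM divides by length. Complete coding transcripts alone gave Pfas 7.17 and 7.85 TPM, against 48.6 and 42.6 for the gene. By their mean Pfas was last of the 10, although in replicate 2 Impdh1 stood below it at 7.63 TPM. In TPM the retained-intron share of Pfas was 47.2% in replicate 1 and 57.2% in replicate 2. A share over 50% of TPM was found in 6.98% and 6.33% of 9539 protein-coding genes with at least 50 counts in both libraries, so by that measure Pfas was among them in replicate 2 only.

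Adsl (chromosome 15, 80948490 to 80970946), a lyase that acts on the way to IMP and again on the way from IMP to AMP, differed widely between the libraries. Adsl measured 51.5 TPM in replicate 1 and 19.8 in replicate 2, from 1866 and 1018 counts. Replicate 1 exceeded replicate 2 by 2.60-fold in TPM and by 1.87-fold in scaled counts, and the mean transcript length behind the TPM was 1910 bases in replicate 1, against 2666 bases in replicate 2. Complete coding transcripts alone gave 13.6 TPM for replicate 1 and 15.8 for replicate 2, in the opposite order and below the values of the gene. That order came from Adsl-206, at 0 and 5.91 TPM. Adsl-201, the coding form with the most counts, was lower in replicate 2, at 13.6 and 9.91 TPM. A decay target of 164 residues, Adsl-205, held 39.6% of the counts in replicate 1, against 14.3% in replicate 2. The retained-intron form Adsl-202 held 26.8% of the TPM in replicate 1 from 91 counts, and the coding form Adsl-206 held 29.8% in replicate 2 from 151 counts, and each had 0 counts in the other library.

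Atic (chromosome 1, 71557150 to 71579631), the bifunctional enzyme that adds the last formyl group and closes the second ring to give IMP, was high in replicate 1 and lower in replicate 2. Atic measured 72.5 TPM in replicate 1 and 34.2 in replicate 2, from 3754 and 1878 counts. Its complete coding transcript of 592 residues took 86.6% and 95.3% of the counts, and gave 58.6 and 32.5 TPM. For Atic the gap between the libraries was thus present in the coding form as well.

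At the branch to guanine nucleotides, Impdh2 (chromosome 9, 108560286 to 108565584) and Impdh1 (chromosome 6, 29200434 to 29216364) encode isoenzymes of IMP dehydrogenase, the rate-limiting step of guanine nucleotide synthesis. Impdh2 is known as the form that rises with proliferation. Impdh2 measured 159.8 TPM in replicate 1 and 168.0 in replicate 2, from 5196 and 4915 counts, and was the highest of the 10 genes in both libraries. Impdh1 measured 18.7 and 16.5 TPM, from 743 and 552 counts. Impdh2 thus made up 89.5% and 91.1% of the summed TPM of both isoenzymes. The log2 ratio of Impdh2 over Impdh1 (TPM + 1) was 3.03 in replicate 1 and 3.28 in replicate 2, a mean of 3.15 ± 0.17 (SD, n = 2). With 2 libraries the smallest two-sided exact sign-flip p is 0.5, so the ratio carries no test. Impdh2 and Ndufaf3 overlap by 48 bases at their ends on opposite strands, and the use of strand in the counting was not stated.

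The Impdh1 gene has 2 start regions, and its leading transcript by counts in both libraries begins at the downstream one. That transcript, of 514 residues, held 84.9% of the counts in replicate 1, against 45.6% in replicate 2. A transcript of 538 residues from the upstream region held 0% and 19.1%. A transcript of 1237 bases, annotated without its 5′ end and so tied to neither start, held 14.6% and 35.3%. Of the TPM this short transcript held 25.8% and 53.7%, so by TPM it led in replicate 2. Complete coding transcripts alone gave Impdh1 13.4 and 7.63 TPM. The window of the downstream start, shown because the leading transcript by counts begins there, held no CACGTG.
Impdh1, chr6:29212248-29212547, minus strand: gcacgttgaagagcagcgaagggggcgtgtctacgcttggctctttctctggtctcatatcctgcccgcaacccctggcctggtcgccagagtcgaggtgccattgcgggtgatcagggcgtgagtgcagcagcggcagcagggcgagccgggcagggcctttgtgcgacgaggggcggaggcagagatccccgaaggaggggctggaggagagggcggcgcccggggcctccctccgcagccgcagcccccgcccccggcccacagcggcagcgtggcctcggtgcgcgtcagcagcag

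Gmps (chromosome 3, 63976106 to 64022579), which aminates xanthosine monophosphate to complete guanosine monophosphate, had the lowest TPM of the 10 genes in both libraries. Gmps measured 18.6 TPM in replicate 1 and 13.1 in replicate 2. Its counts, 3034 and 2135, ranked number 4 of the 10 in each library. The only Gmps transcript in the tables is 8105 bases long, the longest among the fixed lengths of the 10, and TPM divides by that length. Impdh2 exceeded Gmps 8.61-fold in replicate 1 and 12.8-fold in replicate 2 in TPM.

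In order of mean TPM the enzymes ran Impdh2, Paics, Atic, Gart, Pfas, Adsl, Prps1, Ppat, Impdh1 and Gmps. Of the 9 neighbouring pairs 2 had ranges that did not overlap, Impdh2 with Paics and Paics with Atic, and the other neighbours did not differ beyond their spread. Of all 45 pairs, 33 had ranges that did not overlap. By the mean over both libraries, the first 4 places stayed with Impdh2, Paics, Atic and Gart under the 4 other ways of reckoning the level. These were posterior mean TPM, counts without length correction, counts over 1 fixed length per gene, and complete coding transcripts alone. The order below those places changed under all but the posterior mean. Within single libraries the places were less fixed. In counts Gmps ranked number 4 in both libraries, Gart number 5 in replicate 1 and Atic number 6 in replicate 2. Among detected protein-coding genes, Impdh2 stood at percentile 97.4 in replicate 1 and 97.5 in replicate 2, and Paics at 96.7 and 93.9. Gmps stood at 61.8 and 49.0.

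**Figure D2:**
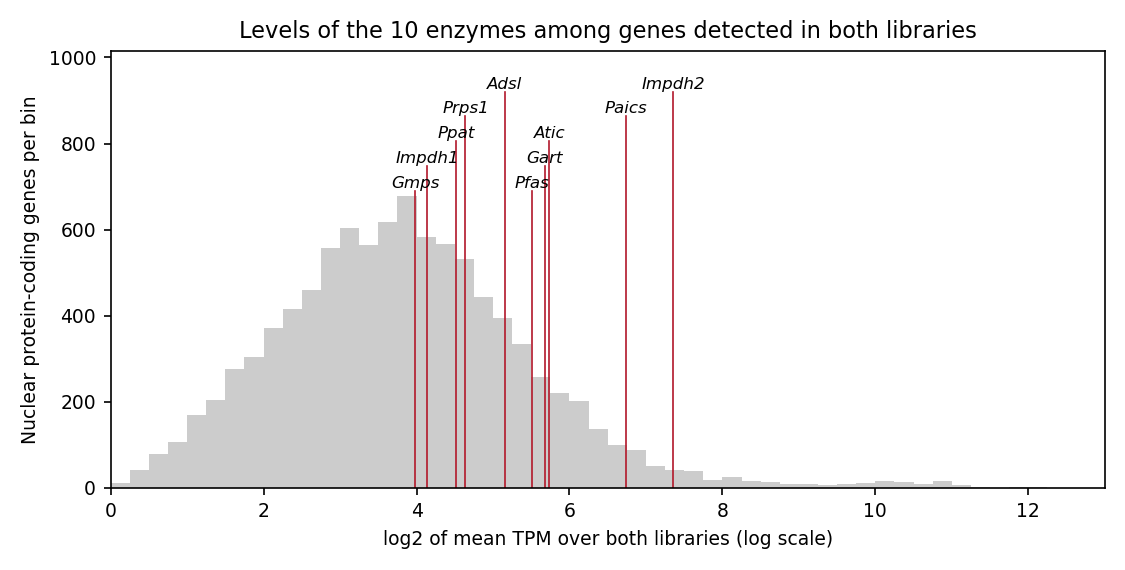
Number of nuclear protein-coding genes detected in both libraries by log2 of mean TPM in bins, with a red line at each enzyme gene; line heights are staggered for the labels and carry no value. Impdh2 and Paics lie in the upper tail and Gmps close to the centre of the distribution.

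The libraries were set against each other gene by gene with a two-sided exact binomial test on expected counts scaled by TMM, a scaling that evens out the bulk of genes. This compares 2 pools with counting error, not conditions. By that test 9 of the 10 enzymes differed at an adjusted p of 0.05, which is read against 78% of 13616 genes tested, and 8 were lower in replicate 2, against 37.5% of genes, and 1 higher, against 40.5%. The median log2 ratio of replicate 2 over replicate 1 was -0.48 over the 10 enzymes and 0.03 over all genes tested, and the median size of the ratio without its sign was 0.48 and 0.51. The median size for the enzymes was no larger than for all genes tested.

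Atic was lower in replicate 2 by a log2 ratio of -1.03 (95% counting interval -1.11 to -0.95, adjusted p = 7.07e-146). Adsl followed at -0.90 (-1.01 to -0.79) and Ppat at -0.77 (-0.87 to -0.67). These genes make the last steps to IMP and the committing step. Gmps at -0.53, Paics at -0.51, Impdh1 at -0.46, Pfas at -0.27 and Impdh2 at -0.11 were also lower. In gene-level TPM Impdh2 was higher in replicate 2, but its complete coding transcript stood at 138.6 TPM in replicate 1 and 134.8 in replicate 2. The retained-intron form Impdh2-203 had 0 and 21.1 TPM, from 0 and 57 counts. Prps1 was higher at 0.22 (0.09 to 0.35, adjusted p = 0.00172). Gart, at -0.05 (-0.12 to 0.03, adjusted p = 0.269), did not pass the test. Of the 6 cell type markers 4 could be tested: Fcgr3 (2.65, adjusted p = 2.45e-15) and Fcgr2b (1.26, adjusted p = 5.05e-13) were higher in replicate 2, Cd34 was lower (-0.48, adjusted p = 4.97e-38) and Kit did not pass, while Ly6a and Il7r were at 0. Of the 8 lineage genes 4 were tested and all 4 passed. Cd4 was higher in replicate 2 (2.10), whereas Itgam (-1.48), Cd5 (-8.21) and Ptprc (-0.10) were lower. The part of these marker and lineage genes in the differences of the enzymes was not tested.

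**Figure D3:**
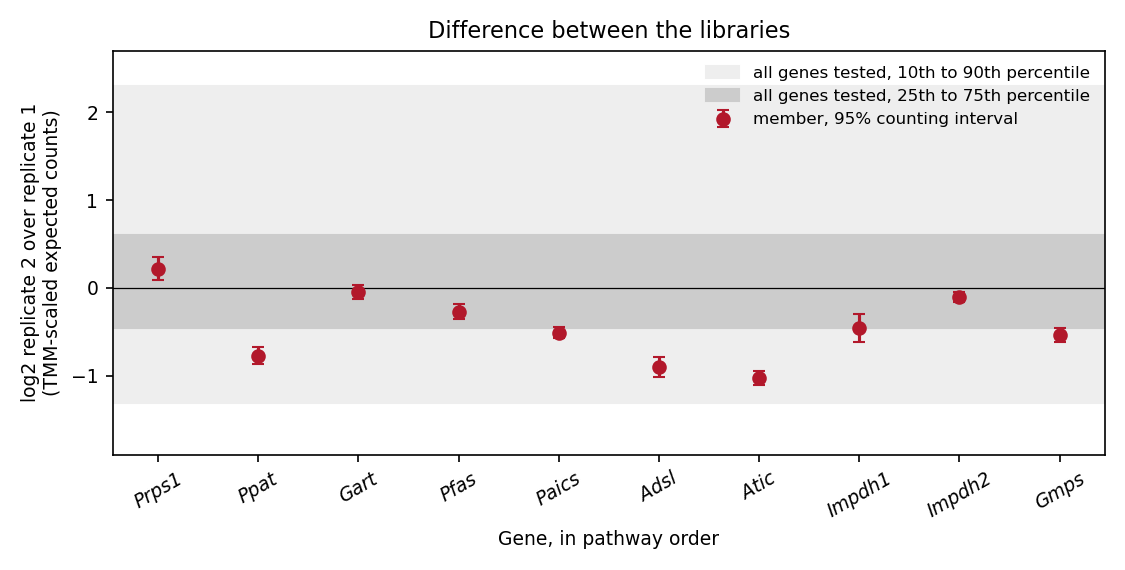
Log2 ratio of replicate 2 over replicate 1 for each enzyme gene in pathway order, with 95% counting intervals, over bands for all 13616 genes tested. The 10 points lie between -1.03 and 0.22, inside the band from the 10th to the 90th percentile of all genes, and the lowest are Atic, Adsl and Ppat.

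These calls take no account of biological spread, which 1 library against 1 cannot estimate. When the dispersion between these same libraries (a biological coefficient of variation of 0.759) was put into edgeR's exact test, 0 of 13616 genes (0%) and 0 of the 10 enzymes passed an adjusted p of 0.05, and 1541 genes but 0 enzymes had an unadjusted p under 0.05. That test takes its spread from the difference it tests and recovered 0% of simulated 4-fold changes, so its count of 0 bears on no enzyme. Total-count scaling adds the same amount to the log2 ratio of every gene and moves the median of all genes from 0.03 to 0.23, and with it 7134 genes were higher and 3610 lower in place of 5516 and 5101. By that shift 6 enzymes were lower and 3 higher, the ratios of Gart and Impdh2 read 0.16 and 0.09, and Pfas no longer passed (adjusted p = 0.122), so the direction of enzymes with ratios this close to 0 is set by the scaling.

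Transcript assignment differed between the libraries for most of the enzymes. The share of counts of the leading transcript was compared by Fisher's exact test in 9 of the 10 genes, as Gmps has a single transcript. Of these 9, 8 differed at an adjusted p of 0.05, against 77.7% of 7355 genes tested. This test takes estimated transcript counts as observed reads. It thus leaves out error in dividing shared reads between transcripts, as well as spread between pools. The median change of that share was 10.7 percentage points for the 9 enzymes and 12.99 over all genes tested. The share of Gart-201 went from 27.2% in replicate 1 to 65.1% in replicate 2. Gart-201 did not lead in replicate 1, where it had 750 counts, against 1022 for Gart-202 and 989 for Gart-203. The share of Ppat-202 went from 64.6% to 96.7%, while that of the leading Impdh1 transcript went from 84.9% to 45.6%. The leading Impdh2 transcript held 93.9% and 95.4%. Prps1 drew all its counts from 1 of its 2 transcripts in both libraries. Over the 10 genes, 39 of 55 transcripts had counts in at least 1 library. Of these 39, 15 had 10 or more counts in one library and 0 in the other. The same share was not computed over all genes, so it is not read as particular to the enzymes.

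**Figure D4:**
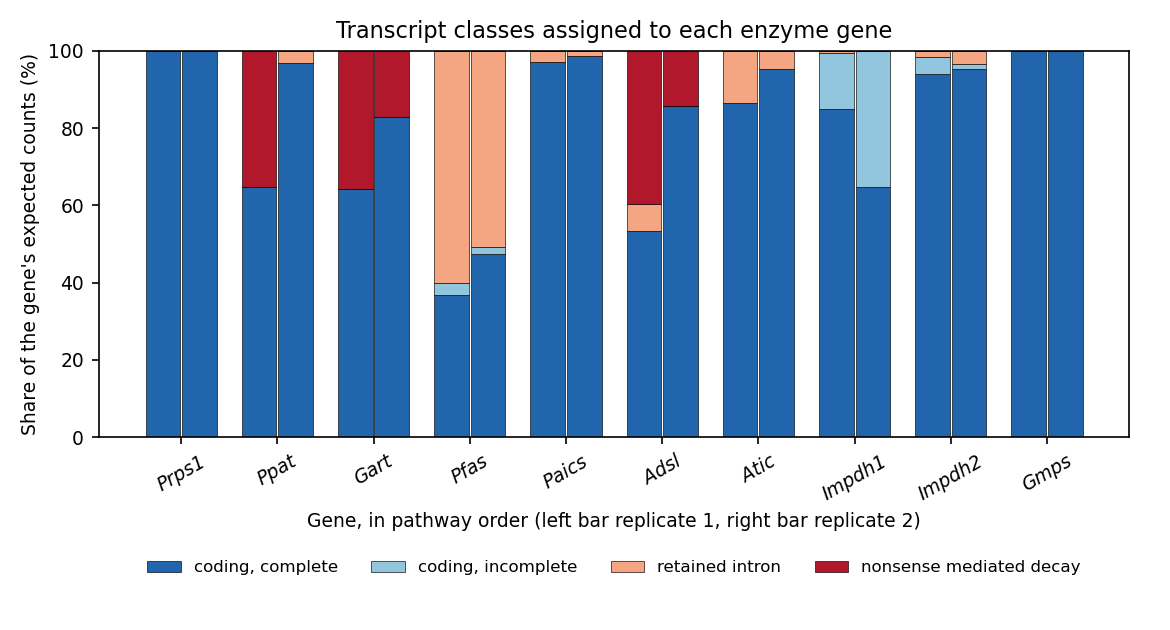
Share of the expected counts of each enzyme gene by annotated transcript class, with replicate 1 in the left bar and replicate 2 in the right bar of each pair. Retained-intron forms hold 60.1% and 50.6% of Pfas, and decay targets hold 35.4% of Ppat in replicate 1 and 0% in replicate 2.

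Genes around the pathway were read through 6 further lists with 44 matched genes, of which 35 were detected in both libraries. In gene-level TPM the list medians lay below the 40.4 ± 13.7 TPM (SD, n = 2) of the 10 synthesis enzymes. The gap was small in replicate 2, at 30.7 TPM for the enzymes and 27.9 for the adenylate branch and nucleotide kinases. With complete coding transcripts alone the median of the enzymes was 21.3 TPM, and the other lists were not recomputed that way. Since these lists differ in size and kind, their medians are descriptions. In purine salvage, which recycles free bases and nucleosides, all 6 matched genes were detected, with a median of 27.8 ± 2.53 TPM. Hprt, which salvages hypoxanthine and guanine, had 79.0 ± 0.368 TPM, Aprt, which salvages adenine, 60.8 ± 0.467, and the adenosine kinase gene Adk 35.2 ± 5.54. The counts of genes called between the libraries in these lists are read against 37.5% of all genes tested that were lower and 40.5% that were higher in replicate 2. Of the 6 salvage genes 5 did not pass the test and 1, Adk, was lower in replicate 2 (log2 ratio -0.37, adjusted p = 2.28e-09), and the median log2 ratio was -0.06.

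In the list of the adenylate branch and nucleotide kinases 7 of 9 genes were detected, with a median of 27.1 ± 1.04 TPM. Its nucleoside diphosphate kinase genes were Nme2 at 160.7 ± 22.2 TPM and Nme1 at 53.8 ± 1.67, whose reads are partly divided between them. Adss, the synthetase that takes IMP toward AMP and was singled out after its values were seen, had 39.98 ± 5.03 TPM. On the guanine side Impdh2 stood well above Adss, whereas Impdh1 and Gmps, at means of 17.6 and 15.8 TPM, stood below it. Ak1, an adenylate kinase gene, had 0 and 17 counts. In this list 5 genes were lower and 3 higher in replicate 2, and of the 5 PRPP synthetase relatives 4 were tested and none of the 4 passed.

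In the list of purine breakdown and conversion 6 of 11 genes were detected, at a median of 4.40 ± 0.163 TPM. The AMP deaminase genes Ampd2 and Ampd3 had 34.8 ± 3.88 and 9.98 ± 4.09 TPM, and the nucleotidase gene Nt5c2 26.7 ± 0.375. Ampd1 had 0 counts in both libraries, Nt5e had 0 and 1, and Gda had 37 and 31. Of 8 genes tested in this list 1 was lower in replicate 2, Ampd3, and 4 were higher, Ampd2, Nt5c2 and, named after their values were seen, Gmpr and Xdh. The list that supplies the formyl groups used by Gart and Atic had 6 of 7 genes detected, with a median of 18.7 ± 0.375 TPM and with Shmt2 at 56.3 ± 0.714, Mthfd1 at 54.2 ± 3.34 and Mthfd1l at 21.6 ± 3.70, while Aldh1l2 had 0 counts. Of its 6 genes tested 3 were lower in replicate 2, Mthfd1 and, named after their values were seen, Shmt1 and Mthfd2, and 1 was higher, Mthfd1l.

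The pyrimidine synthesis list, the parallel route to the other nucleotides, had all 6 genes detected at a median of 19.6 ± 2.26 TPM. Cad, which encodes the enzyme of the first steps, stood at 38.5 ± 2.26 TPM, Ctps2 at 22.7 ± 8.12 and Cmpk1 at 22.3 ± 4.71. In this list 1 gene was higher in replicate 2, Cad (log2 ratio 0.36, adjusted p = 2.45e-20), and 2 were lower, Umps (-0.83, adjusted p = 2.02e-51) and Dhodh (-0.27, adjusted p = 0.00800), both named after their values were seen.

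**Figure D5:**
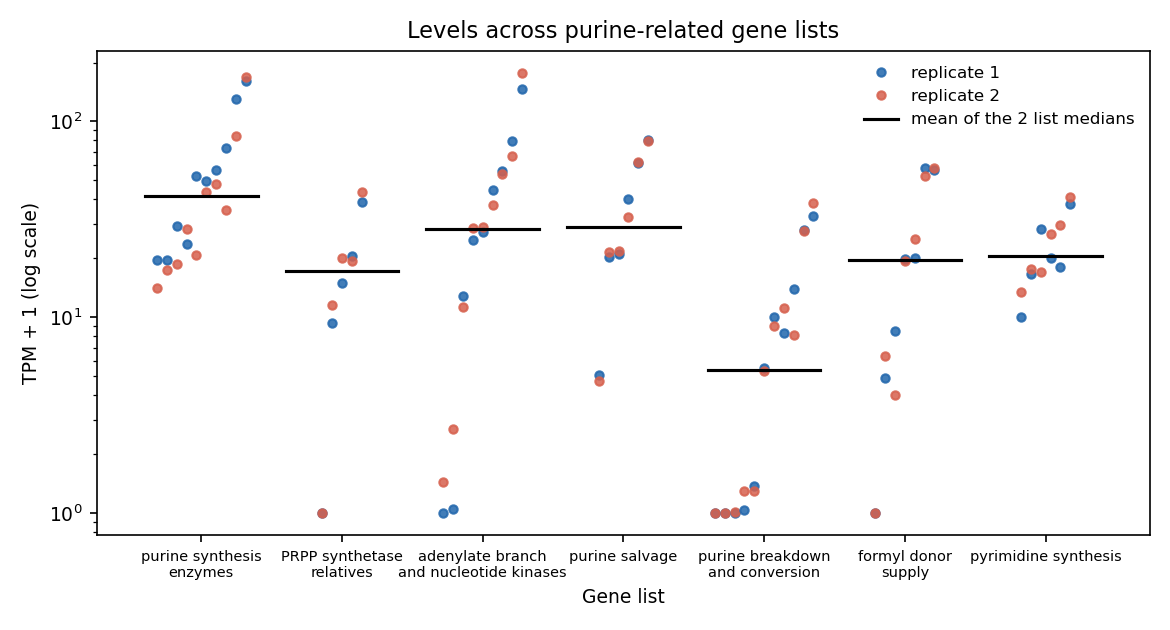
TPM + 1 on a log axis for each gene of the 10 synthesis enzymes and of 6 related lists, with 1 point per library and a line at the mean of the list medians of both libraries. The line of the synthesis enzymes, at a median of 40.4 TPM, lies above those of the other lists, and that of purine breakdown and conversion, at 4.40 TPM, lies lowest.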

How the data were processed

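Per the descriptions deposited beside the tables, the authors made 1 gene and 1 transcript table per library from transcriptome alignments (build mm10, annotation GENCODE M4). The names of aligner and quantifier were not given in the sources used here, nor was use of strand. The deposited expected counts are estimates in which shared reads are divided, and were rounded for tests. The deposited TPM values are per 1000000 over all entries, tRNA and spike-ins included. The deposited percent values give each transcript's share of its gene's TPM; other deposited columns used are lengths in bases, posterior means and posterior SDs.

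Gene identifiers without version were matched to GENCODE M21 (GRCm38) for 42462 of 43346 genes; 1 listed symbol, Pnp, was not matched, and 50 of 55 transcripts of the 10 genes have the same length in both releases. Residues come from M21. Promoters are RefSeq sequences. The members, lists and tests were chosen with earlier results of these data known. Named are all members and, per other list, the 3 highest genes and up to 3 below 1 TPM in both libraries; 1 gene that the rule names is not reported here.

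With 1 library against 1, edgeR's quasi-likelihood test has no residual degrees of freedom, so libraries were compared by an exact binomial test (two-sided) on counts scaled by TMM in edgeR 4.0.16, with a minimum of 10 counts in either library, and leading transcripts by Fisher's exact test in scipy 1.17.1, where a gene had at least 2 transcripts and both libraries at least 50 counts. Both used Benjamini-Hochberg adjustment at 0.05 over all genes tested, with spike-ins, tRNA and ribosomal RNA genes left out. A complete coding transcript is one annotated as protein-coding without a missing end. On data simulated with counting noise alone, 65.7% of 67 genes changed 1.5-fold, 77.6% of 67 changed 2-fold and 95.5% of 66 changed 4-fold, among 13313, were recovered by the binomial test; the edgeR exact test, simulated at its own dispersion, recovered 0% of 66 at 4-fold. Of share shifts of 20 percentage points, 94% were recovered by Fisher's test among 7355 genes. Alternatives were other scalings (DESeq2 1.42.0 size factors, total counts), count minimums, TPM thresholds, posterior means, rescaled TPM and a pseudocount of 0.1. Intervals and floors cover counting error only, since reads that carry no molecular identifier need not be independent molecules.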

Additional observations from a re-analysis of the deposited data

How the results depend on the processing

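All 10 enzymes were detected at thresholds of 0.1, 5 and 10 TPM, with TPM rescaled over nuclear protein-coding genes and with either library left out. The median over the 10 enzymes, 40.4 TPM, became 105.4 when TPM was rescaled over nuclear protein-coding genes, by construction, and 21.3 TPM with complete coding transcripts alone, an alternative chosen after seeing the data. The number of neighbouring pairs with ranges apart, 2, became 5 without length correction, 4 with 1 fixed length per gene (also chosen after seeing the data) and 5 with complete coding transcripts alone. The log2 ratio of Impdh2 over Impdh1, 3.15, became 2.93 without length correction and 3.63 with complete coding transcripts alone. The edgeR exact test gave 0 genes and 0 enzymes in place of 10617 and 9, which follows from its construction, since its dispersion comes from the libraries it compares. Under total-count scaling, which adds the same amount to every gene, the log2 difference between the libraries became 0.16 for Gart and 0.094 for Impdh2. With DESeq2 size factors, no count minimum, a minimum of 50 counts or posterior mean counts, 9 enzymes passed in each case. A single library lies within 1 SD of a mean of 2 by construction, so leaving one out says nothing about the stability of a level, and the comparisons between libraries need both. No paired analysis was possible because both libraries belong to 1 group.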
